A study of Rattus norvegicus with 8 samples.

Results

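The genes described here either carry out or restrain apoptosis, the programmed death of cells, or respond to p53, a transcription factor that is stabilised by DNA damage and other stress. They were taken as a list of 36 gene symbols. Of these, 32 had at least 1 probe set on the rat expression array that carried that symbol and no other, among 14217 genes represented in that way. Where a gene had several such probe sets, the one with the highest mean over all 8 arrays stood for it. The signals of 31 of the 32 genes were bright enough to be tested (among the upper 60% of probe sets), and Bcl2, a survival protein, was below that limit. Btg2, Pmaip1 and Tnfrsf10b had no probe set with their symbol in the platform annotation used here, and the probe set of Bax carries 2 symbols and was not used for the comparison.

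The samples were total RNA from scrapings of the mucosa of the distal colon of rats. Control rats ate RM3 breeder diet (4 arrays), and quercetin rats ate feed containing quercetin at 10 g per kg (4 arrays), both for 11 weeks. Quercetin is a flavonol found in many plant foods. The sources used here do not give the strain, age or sex of the rats. Nothing in the labels says that the arrays of a group came from different rats, so the p-values rest on a spread between samples that may be technical. In such bulk RNA, fewer cells of a type and less RNA per cell cannot be told apart.

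Cells die by apoptosis along a pair of routes. In the mitochondrial route, BH3-only proteins sense damage and overcome the survival proteins of the BCL2 family, after which the effectors BAX and BAK1 open the outer mitochondrial membrane, and released proteins switch on caspase 9 through APAF1. In the receptor route, death receptors such as FAS recruit FADD and caspase 8 at the cell surface. Colonocytes are renewed from the crypt base and lost at the surface within days, and damaged crypt cells are cleared by p53-dependent apoptosis.

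In the distal colon of quercetin-fed rats, 0 of the 31 tested genes differed from control at an adjusted p under 0.05 (limma, Benjamini-Hochberg over 18625 probe sets). The share of all tested probe sets past that threshold was 0.0107%. At an unadjusted p under 0.05, 0 of the 31 genes passed, where 10.8% of all tested probe sets did. The 4 quercetin arrays overlapped the 4 control arrays for every one of the 31 genes, while 6.39% of all tested probe sets showed no overlap. Of the 31 genes, 13 had a higher and 18 a lower mean in quercetin (41.9% higher, against 51.3% of all tested probe sets). That split depended on the scaling and on single arrays: with each array centred on its median it was 19 higher and 12 lower, where 58.4% of all tested probe sets were higher. Without control array 1 it was also 19 and 12, and without control array 2 it was 10 and 21. Their log2 fold changes (quercetin minus control, on the log2(signal + 16) scale) ran from -0.44 for Cflar to 0.43 for Tp53i11, with a median of -0.01 beside 0.0085 over all tested probe sets.

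**Figure D1:**
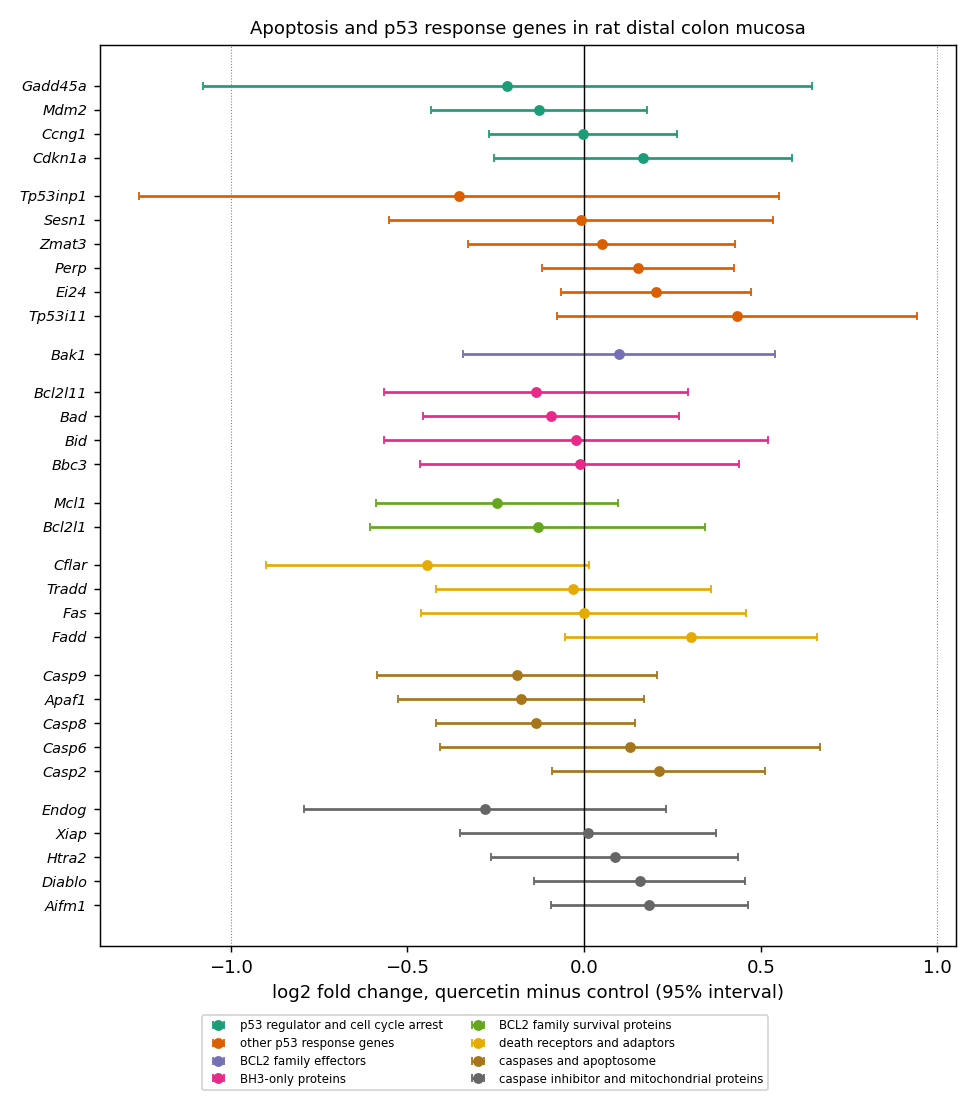
Log2 fold change of each tested gene (points), quercetin minus control, with its 95% interval from limma (bars) and dotted lines at changes of 2-fold. Genes are grouped by role and coloured accordingly; every interval includes 0, and those of Gadd45a and Tp53inp1 reach beyond a 2-fold fall.

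A p that misses the threshold does not show that the diets act alike, so the intervals set what these arrays can tell. The 95% interval of the log2 fold change lay within a 1.5-fold change in either direction for 20 of the 31 genes, and within a 2-fold change for 29. The intervals of Gadd45a (-1.08 to 0.64) and Tp53inp1 (-1.26 to 0.55) reached further. These counts cover only the probe set that stood for each gene. Dimmer tested probe sets of some of the 20 genes had intervals past a 1.5-fold change. Examples were those of Bid (-0.76 to 1.11) and Casp8 (0.04 to 1.22) and 1 of Mdm2 (-0.78 to 0.98). The standard error had a median of 0.18 over these genes and 0.222 over all tested probe sets, and the median size of the change without its sign was 0.137 against 0.192.

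Some arrays stood apart. Control array 2 correlated least with the rest (mean 0.927, others up to 0.955). Its ratios of 3' to 5' signal, which rise when RNA is shortened, were the highest, at 3.79 for GAPDH (1.58 to 2.36 on the others) and 21.4 for beta-actin. The beta-actin ratio was 8.65, 21.4, 10.2 and 12.4 on control arrays 1 to 4 and 6.79 to 9.12 on the quercetin arrays. Control arrays 2, 3 and 4 were thus above every quercetin array, and control array 1 lay inside the quercetin range. The GAPDH ratios of the quercetin arrays (1.91 to 2.36) lay within the control range (1.58 to 3.79). The part of these ratios in the comparison of the diets was not tested. The epithelial markers set for this tissue were all bright enough to test (16 of 16), and their summed signal was 170800 to 184700 in control and 156500 to 176100 in quercetin. Markers of proliferating cells had 17 of 17 tested genes higher in quercetin, where 51.3% of all tested probe sets were, and 0 past the adjusted threshold. At an unadjusted p under 0.05 there were 6 (35.3%, beside 5.04% of all on the higher side). Cdk1, Aurka and Foxm1 showed no overlap between the diets (17.6%, all higher in quercetin, beside 6.39% of all in either direction). Foxm1 is in both counts, but only its quercetin arrays brought it past the brightness limit (mean signal 23.9 in control, 73.3 in quercetin). The proliferation markers had summed signals of 2699 to 6843 in control, lowest on control array 1, and 6018 to 9576 in quercetin. The count of 17 higher markers may lean on that array and was not repeated without it. Mcm3 read 47 there, against 102 to 202 in the rest of control and 103 to 165.5 in quercetin. Pcna read 1179 there, against 1955 to 2292 and 1780 to 3005. Cdk1 stayed apart without that array (262 to 329.5 against 383 to 555.5), and Foxm1 had its highest control signal there (44.5). Of the 9 T cell markers 6 were below the brightness limit, Cd3d and Cd3e among them, and so were 5 of 11 smooth muscle markers, 2 of 5 of B cells, 4 of 8 of macrophages and dendritic cells and 4 of 7 of fibroblasts. Their summed signals overlapped between the diets, at 371 to 739 in control and 486 to 806 in quercetin for T cells, 138 to 176 and 138 to 257 for B cells, 284 to 366 and 322 to 417 for macrophages and dendritic cells, 1804 to 3410 and 1818 to 2119 for smooth muscle, and 147 to 307 and 149.5 to 229 for fibroblasts. The smooth muscle sum came mostly from Mylk (1219 to 2693 in control, 1086 to 1534 in quercetin). Cd3g was the largest part of the T cell sum (163 to 449 in control, 194 to 552 in quercetin). Lyz2 was the largest part of the macrophage and dendritic cell sum (117 to 164 in control, 162 to 299 in quercetin). Its log2 fold change was 0.57, with an unadjusted limma p of 0.0176 and an adjusted p of 0.363. Of the 4 tested markers of these cells 2 were higher and 2 lower in quercetin. Only Lyz2 had an unadjusted p under 0.05 (25%, beside 10.8% of all tested probe sets).

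Among the genes that regulate p53 or carry out its arrest of the cell cycle, 4 were tested, 1 with a higher mean and 3 with a lower mean in quercetin (Ccng1 turned to 0.05 with median centring). Mdm2 encodes the ubiquitin ligase that marks p53 for destruction and is itself a p53 target. Its signal on control arrays 1 to 4 was 459, 405, 469 and 409, and on quercetin arrays 1 to 4 it was 347.5, 397, 386 and 461. Quercetin array 4 lay inside the control range and the other quercetin arrays below it, and the log2 fold change was -0.13 (SE 0.141, limma adjusted p = 0.789).

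Cdkn1a encodes p21, the inhibitor of cyclin-dependent kinases through which p53 halts division. Its signal was 1103, 554, 779.5 and 940.1 on the control arrays and 789, 898, 909 and 1114 on the quercetin arrays. The highest values of the groups lay close together and control array 2 was the lowest of all, giving a log2 fold change of 0.17 (SE 0.195, limma adjusted p = 0.807) with all arrays and -0.02 without control array 2.

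Ccng1, a cyclin induced by p53, varied least between arrays of all the tested genes. It read 522 to 585 over all 8 arrays, a ratio of 1.12 between the highest and lowest, and its log2 fold change was 0.00 (SE 0.123, limma adjusted p = 0.997). Gadd45a, a stress sensor in growth arrest and DNA repair, was among the most variable. Its signal was 1614, 288, 728 and 647 on the control arrays and 762, 347, 764 and 591 on the quercetin arrays, so the control group held both the highest and the lowest value. Its log2 fold change of -0.22 (SE 0.399) turned to 0.19 without control array 1 and to -0.62 without control array 2.

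A further 6 genes that respond to p53 were tested, 4 with a higher and 2 with a lower mean in quercetin (Sesn1 turned to 0.04 with median centring). Tp53i11, named as a p53-inducible gene, had the highest log2 fold change of the 31. Its signal was 105, 228, 118 and 104 on the control arrays and 162, 199, 159.8 and 216 on the quercetin arrays. The quercetin arrays were above control arrays 1, 3 and 4, and control array 2 was above every quercetin array. The log2 fold change was 0.43 (SE 0.236, 95% interval -0.08 to 0.94, limma adjusted p = 0.545). Without control array 2, the array with the highest 3' to 5' ratios, it was 0.67, with an unadjusted limma p under 0.05 and an adjusted p of 0.339; over all 20 alternatives the adjusted p was at least 0.243.

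Ei24, a protein of the endoplasmic reticulum induced by p53, read 1033, 935, 979 and 943 on the control arrays and 1061, 1030.0, 1120 and 1291 on the quercetin arrays. Only control array 1 and quercetin array 2 overlapped, by a narrow margin, and the log2 fold change was 0.20 (SE 0.124, limma adjusted p = 0.595). Perp, a desmosome protein and p53 target of epithelia, had 0.15, and Zmat3, an RNA-binding p53 target, 0.05. Sesn1, a sestrin that restrains mTOR signalling, had -0.01. Tp53inp1, a p53-induced regulator of autophagy and death, had -0.35 (SE 0.419) on a dim probe set that read 10.9 to 76.0 over the 8 arrays, a ratio of 7.01 between the highest and lowest. Its value was -0.69 without control array 2, -0.17 without control array 1, -0.13 without control array 4 and -0.10 without quercetin array 1.

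**Figure D2:**
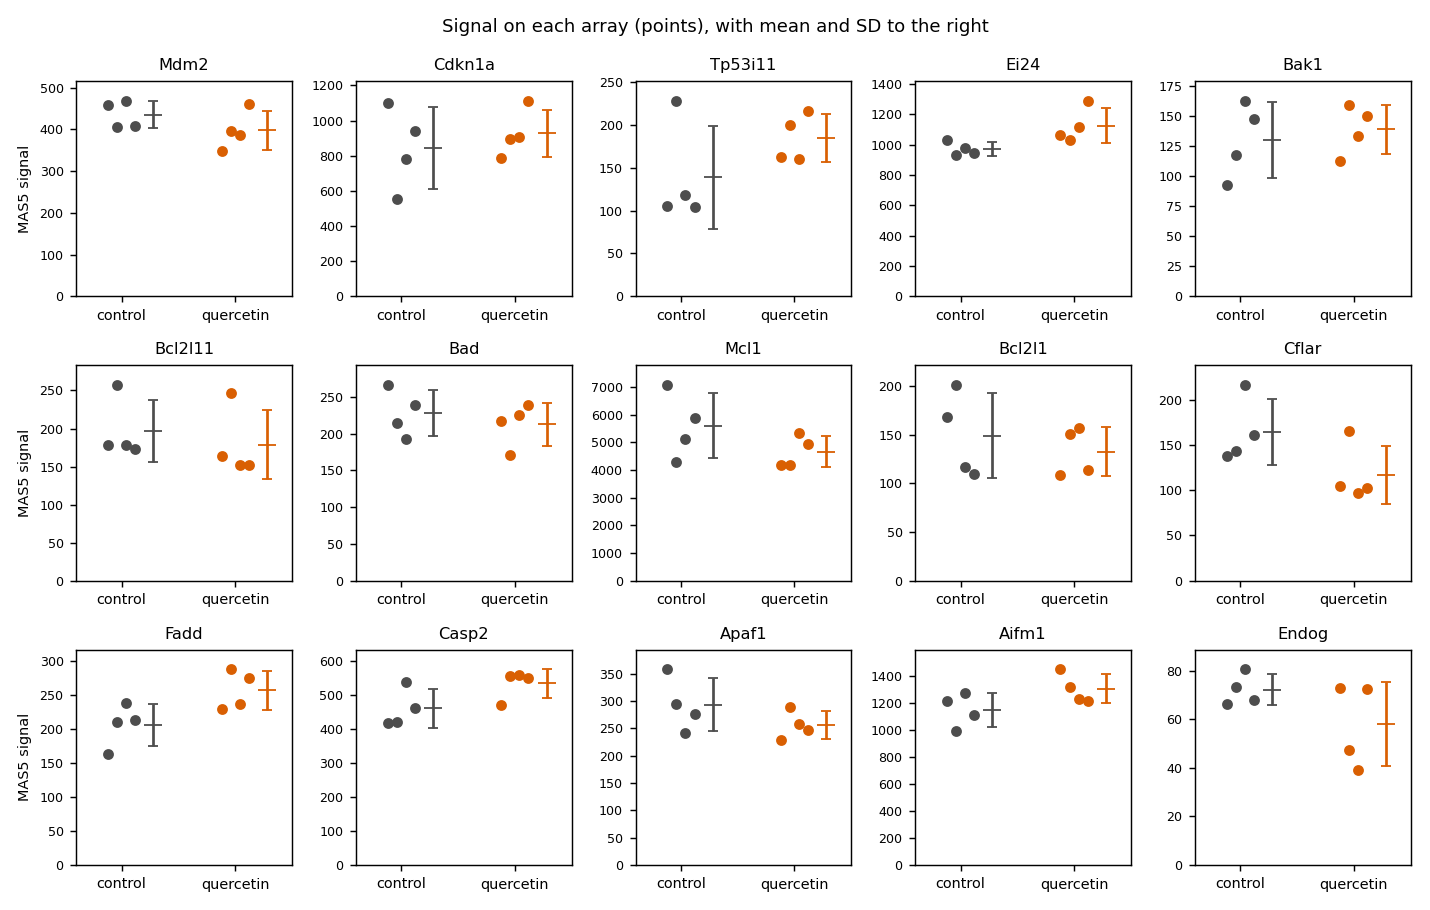
MAS5 signal (linear, from 0) of 15 genes on each control (grey) and quercetin (orange) array as points, with the group mean and SD (n = 4) to the right. The groups overlap in all 15 panels; Tp53i11 has 1 high control array and Cflar 1 high quercetin array. The genes are the 2 with the smallest p in each role, or the 1 tested.

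Of the effectors that open the mitochondrial membrane, Bak1 was tested. It read 92.3, 118, 163 and 148 on the control arrays and 112, 159, 133 and 150.2 on the quercetin arrays. All quercetin values lay within the control range, with a log2 fold change of 0.10 (SE 0.204, limma adjusted p = 0.905).

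The 4 BH3-only genes that were tested all had lower means in quercetin by small amounts, between -0.14 and -0.01 on the log2 scale, and 0 passed. With each array centred on its median, the signs of Bid (0.03) and Bbc3 (0.04) turned. Bcl2l11 encodes BIM, which binds all survival proteins of the family. Its signal was 178, 257, 178 and 173 on the control arrays and 164, 246, 152 and 153 on the quercetin arrays. Each group held a single high array, control array 2 and quercetin array 2, and the log2 fold change was -0.14 (SE 0.199, limma adjusted p = 0.852). Bad, which is switched off by growth factor signalling, read 267, 214.5, 193 and 239 on the control arrays and 217, 171, 225 and 239 on the quercetin arrays. The log2 fold change was -0.09 (SE 0.168, limma adjusted p = 0.885). Bbc3, which encodes the p53 target PUMA, had -0.01 and Bid, which links the receptor route to mitochondria, -0.02. The signal of Bbc3 differed 2.05-fold between the highest and lowest control array and 1.11-fold between the quercetin arrays.

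Of the survival proteins, Mcl1 and Bcl2l1 were tested, and both had lower means in quercetin without passing (Bcl2l1 turned to 0.04 with array weights). Mcl1, a short-lived protein that sequesters BH3-only proteins, read 7073, 4289, 5130.0 and 5885 on the control arrays and 4186, 4194, 5328 and 4946 on the quercetin arrays. Only quercetin arrays 1 and 2 lay below the control range. The log2 fold change was -0.25 (SE 0.159, 95% interval -0.59 to 0.10, limma adjusted p = 0.618), and a dimmer Mcl1 probe set gave -0.28. Without control array 1 the value was -0.12 and without control array 2 it was -0.36. Bcl2l1, which encodes BCL-XL, read 168, 201, 117 and 109.6 on the control arrays and 108.5, 151, 157 and 113 on the quercetin arrays, a log2 fold change of -0.13 (SE 0.219, limma adjusted p = 0.873). The mean signal of Bcl2, below the brightness limit, was 3.09 ± 1.18 (SD, n = 4) in control and 4.96 ± 4.17 (SD, n = 4) in quercetin, and it was not tested.

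In the receptor route 4 genes were tested, 1 with a higher and 3 with a lower mean in quercetin (Fas and Tradd turned to 0.05 and 0.02 with median centring). Cflar encodes FLIP, which blocks caspase 8 at death receptors, and had the lowest log2 fold change and the smallest p of the 31. Its signal was 137.5, 143, 217 and 161 on the control arrays and 105, 165, 97.4 and 102 on the quercetin arrays. Quercetin arrays 1, 3 and 4 were below every control array, and quercetin array 2 was above all but control array 3. The log2 fold change was -0.44 (SE 0.212, 95% interval -0.90 to 0.01, limma adjusted p = 0.48). A dimmer Cflar probe set had 0.24 (SE 0.392), and the mean of both gave -0.10.

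Fadd, the adaptor between death receptors and caspase 8, read 163, 210.5, 237 and 213 on the control arrays and 228, 288, 237 and 274 on the quercetin arrays. Quercetin arrays 2 and 4 lay above every control array, and the log2 fold change was 0.30 (SE 0.165, 95% interval -0.05 to 0.66, limma adjusted p = 0.543). Fas, the receptor itself and a p53 target, had 0.00 and Tradd, the adaptor of the TNF receptor, -0.03, with limma adjusted p-values of 1 and 0.972.

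Caspases are the proteases that start and carry out the death programme. Of the 5 genes tested here, 2 had a higher and 3 a lower mean in quercetin. Casp2, an initiator linked to p53 through the PIDDosome, read 417, 421, 538.5 and 461 on the control arrays and 470.4, 555, 559 and 548 on the quercetin arrays. Quercetin arrays 2, 3 and 4 lay above all control arrays and quercetin array 1 inside their range, with a log2 fold change of 0.21 (SE 0.140, 95% interval -0.09 to 0.51, limma adjusted p = 0.628). Apaf1, the scaffold of the apoptosome, read 358, 295, 242 and 276.5 on the control arrays and 228, 289, 259 and 247 on the quercetin arrays. Its log2 fold change was -0.18 (SE 0.161, limma adjusted p = 0.739). Casp9, the initiator that the apoptosome activates, had -0.19, Casp8, the initiator of the receptor route, -0.14, and Casp6, an executioner, 0.13.

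The remaining 5 genes encode the caspase inhibitor XIAP and proteins that leave mitochondria in dying cells, 4 of them with a higher mean in quercetin. Aifm1 encodes a flavoprotein of mitochondria that can move to the nucleus when cells die. It read 1219, 995, 1277 and 1112 on the control arrays and 1454, 1325, 1235 and 1216 on the quercetin arrays. Quercetin arrays 1 and 2 were above every control array, and the log2 fold change was 0.18 (SE 0.129, limma adjusted p = 0.644). Endog, a mitochondrial nuclease, read 66.5, 73.3, 80.7 and 68.1 on the control arrays and 73.0, 47.5, 39.0 and 72.5 on the quercetin arrays. Quercetin arrays 2 and 3 lay below the control range and the other two inside it, with a log2 fold change of -0.28 (SE 0.236, limma adjusted p = 0.717). Diablo and Htra2, whose products relieve caspases of XIAP, had 0.16 and 0.09, and Xiap had 0.01.

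For 24 of the 31 genes the log2 fold change between the diets was smaller than the larger of the SDs within a diet. The exceptions were Ei24, Fadd, Cflar, Casp2, Casp8, Diablo and Aifm1. The highest signal of a gene over the 8 arrays was at the median 1.69 times its lowest. Within the control group 6 genes varied over 2-fold, and within the quercetin group 2. The share of all tested probe sets with such a range was not computed. The SD was larger in control for 20 of the 31 genes and for 59% of all tested probe sets. Control array 1 held the highest value of 9 of the 31 genes (29%), while it was the highest of the 8 for 14.8% of all tested probe sets. Control array 2 held the lowest value of 9 (29%), against 19.5% of all tested probe sets. Averaged over the 4 genes of p53 regulation and arrest, with each gene centred on its own mean, control array 1 lay 0.46 above and control array 2 at -0.45 on the log2 scale, and the other arrays between -0.21 and 0.12. Gadd45a was the largest part of this, at 1.32 on control array 1 and -1.10 on control array 2. On the same arrays Cdkn1a had 0.34 and -0.63, Mdm2 0.14 and -0.03, and Ccng1 0.04 and -0.02. Control array 1 had the lowest summed proliferation markers and control array 2 the highest 3' to 5' ratios; their part in these array differences was not tested. With both arrays left out, 2 of the 31 genes had an unadjusted p under 0.05, Tp53i11 (0.65) and Cflar (-0.63), with limma adjusted p-values of 0.594 and 0.613. In that fit 7.46% of all tested probe sets had an unadjusted p under 0.05.

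**Figure D3:**
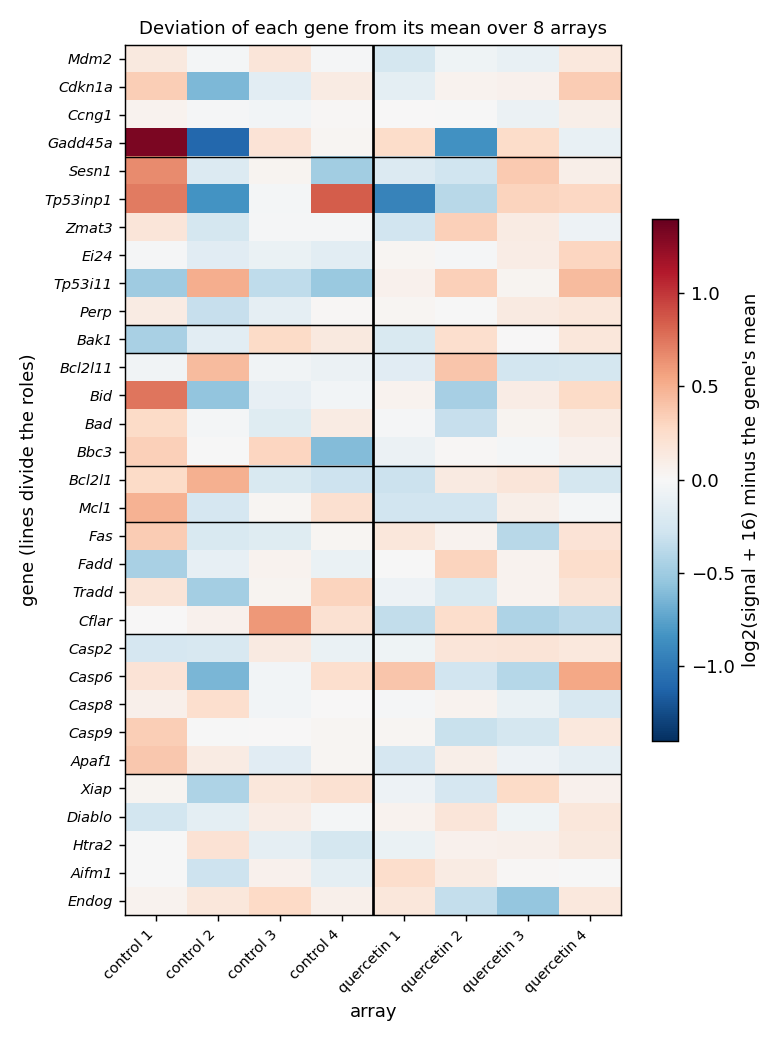
Deviation of log2(signal + 16) from the gene's mean over the 8 arrays (colour scale, red above and blue below) for the 31 tested genes (rows, divided by role) and the 8 arrays (columns, divided by diet). The strongest colours lie within the control columns, where Gadd45a is high on control array 1 and low on control array 2.

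Some genes are read by more than 1 probe set, and these did not always give the same value. The 32 genes had 52 probe sets, and 15 genes had more than 1. Of the 45 probe sets that were tested, 0 passed the adjusted threshold, 2 had an unadjusted p under 0.05 (4.44%, beside 10.8% of all) and 1 showed no overlap between the diets (2.22%, beside 6.39%). Of the 14 dimmer ones that were tested, 9 had a sign other than that of the brighter probe set of the gene, and 3 differed from it by more than 0.5 on the log2 scale.

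Both probe sets with an unadjusted p under 0.05 belong to caspases. The dimmer Casp2 probe set read 26.3, 7.24, 17.4 and 33.5 on the control arrays and 34.0, 47.3, 85.6 and 48.3 on the quercetin arrays. Every quercetin array was above every control array, by a narrow margin between quercetin array 1 and control array 4. The mean signal was 21.1 in control and 53.8 in quercetin, around the brightness limit of 29.4. Only the quercetin arrays brought this probe set past that limit, so its p and lack of overlap are no support for a difference. The log2 fold change was 0.92 (SE 0.338, limma adjusted p = 0.363), against 0.21 on the brighter probe set. The dimmer Casp8 probe set read 214, 68.2, 146 and 149 on the control arrays and 195, 189, 199 and 303 on the quercetin arrays. Control array 1 lay inside the quercetin range, and the log2 fold change was 0.63 (SE 0.274, limma adjusted p = 0.434), against -0.14 on the brighter probe set.

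**Figure D4:**
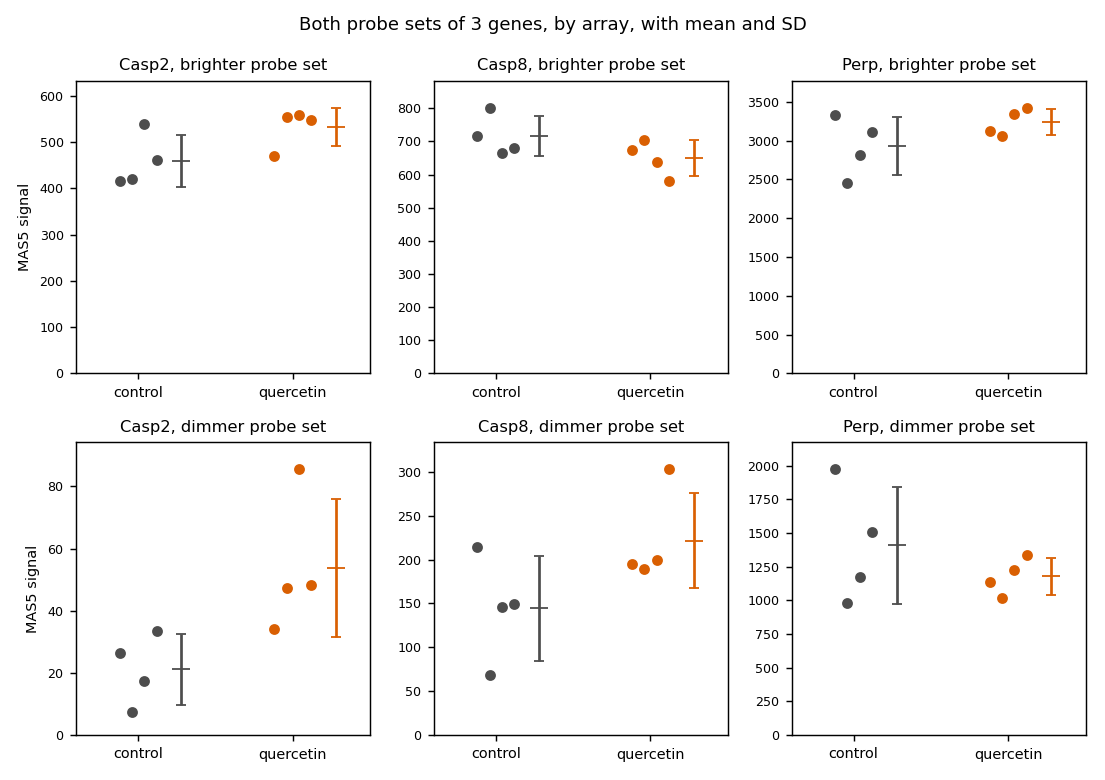
MAS5 signal (linear, from 0) of the brighter (top) and dimmer (bottom) probe set of Casp2, Casp8 and Perp on each control (grey) and quercetin (orange) array, with group mean and SD (n = 4) to the right. For Casp8 the brighter probe set has the lower mean in quercetin (649.5 against 716) and the dimmer one the higher (222 against 144).

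Other pairs also differed in sign. The dimmer Perp probe set had a log2 fold change of -0.21 against 0.15, the dimmer Apaf1 probe set 0.16 against -0.18, and both dimmer Mdm2 probe sets 0.10 and 0.15 against -0.13. Other dimmer probe sets with another sign were those of Bid (0.17), Cdkn1a (-0.01), Cflar (0.24) and 1 of Fas (0.12). Of the 52 probe sets of these genes 45 were tested, and the rest were below the brightness limit. Among the rest 3 showed no overlap between the diets. That share over all probe sets below the limit was not computed, so no result is read from these 3. A Casp9 probe set read 24.8 to 71.1 in control and 1.41 to 16.2 in quercetin, and a Bcl2l1 probe set 21.4 to 33.9 and 13.8 to 17.9. A Bcl2l11 probe set read 0.892 to 20.3 in control and 23.97 to 38.9 in quercetin. The brighter probe sets of these genes overlapped between the diets.

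Beyond these genes, 82 others of the same pathways were listed, of which 62 could be tested. Of the 62, 0 passed the adjusted threshold in either direction, and 8 had an unadjusted p under 0.05 (12.9%, beside 10.8% of all probe sets). That count was 3 without control array 1, without control array 4 or without quercetin array 2, and 3 with each array centred on its median, where 10.3% of all probe sets passed. Of the 8, 2 were higher, where 5.04% of all probe sets were, and 6 lower, where 5.71% were. The median log2 fold change of the 62 was -0.01. The diets did not overlap for 1 of them (1.61%, beside 6.39% of all tested probe sets), which was Parp1, a sensor of DNA strand breaks and a caspase substrate. It read 292, 258, 333.5 and 303 on the control arrays and 506.5, 437, 403 and 434 on the quercetin arrays, with a log2 fold change of 0.56 (SE 0.144, limma adjusted p = 0.261).

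The other genes of this wider list with the smallest p on the higher side were Api5, an inhibitor of apoptosis (0.37), Ppm1d, a phosphatase induced by p53 that dampens it (0.33), and Tnfrsf1a, the TNF receptor (0.26). On the lower side were Sfn, which encodes the p53 target 14-3-3 sigma (-0.64), Dedd, a protein with a death effector domain (-0.59), Faim, an inhibitor of Fas-induced death (-0.52), and Tob1, an antiproliferative protein (-0.36). Their limma adjusted p-values ran from 0.324 to 0.599. The signal of Sfn was 1843, 654, 918 and 981 on the control arrays and 608, 576, 740.5 and 689.7 on the quercetin arrays, and control array 1 was the highest of all.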

How the data were processed

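The authors deposited 1 intensity table of linear MAS5 signals (1 value per probe set and array), with MAS5 named per the submitters' processing notes. The 2% trimmed mean was 200.07 to 200.09 on each array, and this scaling assumes that most transcripts were level between arrays. The sources used here give no other step and no genome build. After 57 array controls had been removed from the 31099 probe sets, signals became log2(signal + 16), which understates changes of dim probe sets, and the upper 60% by mean over 8 arrays (18625, signal about 29.4 or more) were tested.

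Groups came from the sample titles. The diets were compared in R 4.3.3 with limma 3.58.1 (lmFit, then eBayes with the trend option; two-sided; Benjamini-Hochberg adjustment over all tested probe sets; threshold 0.05). The number of arrays limits the precision. Gene symbols came from the platform annotation. The members and lists were chosen with earlier results of these data known. Genes named with signals on every array were the 2 with the smallest p in each of 8 roles; Gadd45a, Parp1, Sfn, and the dimmer Casp2 and Casp8 probe sets were added after their values were seen. Of the wider list, up to 4 genes a direction with the smallest p were named. Steps were tested on simulated data. Alternatives were pseudocounts of 1 and 64, other scalings and filters, array weights, no trend, a replicate block, a GAPDH ratio covariate, gene means of probe sets, and arrays left out.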

Additional observations from a re-analysis of the deposited data

Results flagged for a closer look

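In each diet group of 4 arrays, the gap of an array to the nearest other array was taken as a share of the group's range. An array was picked out when this share was above Dixon's 95% critical value. The genes and their median deviation were taken on the log2 scale, and the GAPDH and beta-actin ratios without a log. Of 68 groups looked at (31 genes and 3 array measures in each diet), 6 had such an array, where chance gives about 3.4. Control array 2 was high for Tp53i11 (0.845) and for Bcl2l11 (0.927), and control array 1 was high for Casp9 (0.906). Quercetin array 2 was high for Bcl2l11 (0.848) and for Cflar (0.869), and quercetin array 1 was low for Casp2 (0.882).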

How the results depend on the processing

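Of the genes tested (31, or 29 among the upper 40% of probe sets and 32 without a filter) 0 passed the adjusted threshold in any of the 20 alternatives, and the smallest adjusted p of the 31 was 0.243. The other pathway genes also gave 0 in each. The count of genes with an unadjusted p under 0.05 was 0 with all arrays and the main settings. It was 1 with median centring (Tp53i11) and 2 with array weights (Tp53i11, Cflar). The count was also 2 with control arrays 1 and 2 both left out (Tp53i11, Cflar) and with the GAPDH 3' to 5' ratio as a covariate (Tp53i11, Mcl1). Gene means gave 1 (Casp2, 0.564). That mean includes the dimmer Casp2 probe set, which only the quercetin arrays brought past the brightness limit, so it is no support for a difference. Leaving out 1 array gave a count of 0 to 3. It was 3 without control array 2 (Tp53i11, Mcl1, Cflar), and 1 without control array 1 and without quercetin array 2 (Cflar both times). Over the alternatives 7.46% to 13.2% of all probe sets had such a p, except for gene means, where this share was not computed. Past the adjusted threshold over all probe sets were 2, or 1 with a pseudocount of 1, quantile normalisation, median centring, no filter or no trend, 3 with a pseudocount of 64, 0 with both of those control arrays left out, and 1 to 2 with 1 array left out.

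The replicate number as a block gave 1 probe set past the threshold in place of 2, with 0 of the 31 genes. The deviations of same-numbered arrays had correlations of -0.151 to 0.163. Of the 4 control arrays, 2 correlated best with the quercetin array of their own number. With so few arrays this cannot decide whether the numbers pair them. The labels do not state a pairing, so the numbers were not taken to pair the arrays.

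The sign turned in at least 1 alternative for 18 of the 31 genes; the cause was not tested. Median centring gave Bbc3 0.038, Bid 0.026, Ccng1 0.047, Fas 0.049, Sesn1 0.040 and Tradd 0.019. Quantile normalisation gave Fas 0.004 and Sesn1 0.002. Array weights gave Bbc3 0.120, Bcl2l1 0.036, Bid 0.021, Ccng1 0.004, Fas 0.010, Sesn1 0.151 and Xiap -0.075. With control arrays 1 and 2 both left out the values were -0.155 for Bak1, 0.147 for Bbc3, 0.184 for Bcl2l1, 0.063 for Bid, -0.032 for Casp6, 0.008 for Ccng1, 0.069 for Fas, 0.222 for Sesn1 and -0.179 for Xiap. The GAPDH covariate gave Xiap -0.054. Gene means of probe sets gave Bcl2l11 0.169, Bid 0.075, Casp8 0.247, Fas 0.064, Mdm2 0.039 and Perp -0.030. With 1 array left out the ranges were -0.164 to 0.001 for Bad, -0.037 to 0.204 for Bak1, -0.217 to 0.098 for Bbc3, -0.251 to 0.013 for Bcl2l1, -0.213 to 0.223 for Bid, -0.062 to 0.285 for Casp6, -0.029 to 0.024 for Ccng1, -0.017 to 0.307 for Cdkn1a, -0.072 to 0.128 for Fas, -0.620 to 0.187 for Gadd45a, -0.174 to 0.209 for Sesn1, -0.194 to 0.069 for Tradd, -0.131 to 0.092 for Xiap and -0.053 to 0.147 for Zmat3. The other 13 genes kept their sign in all alternatives in which they were tested, though with 1 array left out Tp53inp1 ranged from -0.693 to -0.102; Tp53inp1 and Endog were not tested among the upper 40%.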

Other observations

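The probe set that names Bax together with another gene read 316, 363, 245 and 272.0 on control arrays 1 to 4 and 345, 335, 334 and 323 on quercetin arrays 1 to 4. Control array 2 was the highest of the 8, and the quercetin values lay within the control range. Which of the 2 named genes gave the signal cannot be told from these data.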
